A study of Homo sapiens with 72 samples.

Results

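The difference between 2 related breast epithelial lines in their response to TGF-β after 8 h was measured for long non-coding RNA (lncRNA) genes. MCF10A-M2 (M2) is the HA-Ras-transformed derivative of MCF10A-M1 (M1), a line of non-malignant mammary epithelial cells. In each line the response is the level after 8 h of TGF-β (5 ng/mL) against the level after 8 h of SB431542 (SB, 10 µM), both given after a night without serum. The value reported is the response in M2 minus the response in M1, so a positive one means that TGF-β raised a gene more, or lowered it less, in M2 than in M1. It rests on 12 of the 72 libraries of the series: M2 with TGF-β, M2 with SB, M1 with TGF-β and M1 with SB, with 3 replicates each. The design text of the series calls the replicates biological. If they did not come from separate cultures, the p-values reflect only variation among these libraries, which may be technical. Untreated cells of both lines at 0 h, the same groups at 2 and 24 h and the breast cancer line MDA-MB-231 served for comparison. The earliest SB libraries are titled 0 h but labelled as treated for 0.5 h, and they are used as the 0 h libraries.

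TGF-β binds a pair of receptor kinases at the cell surface. The type I receptor then phosphorylates SMAD proteins, which move to the nucleus and change transcription. SB431542 blocks the kinase of the type I receptor, including any signalling from TGF-β that the cells make themselves. In normal mammary epithelium TGF-β halts proliferation, and in cells with active Ras it is known to promote invasion and the loss of epithelial traits. LncRNAs are transcripts that encode no protein, and many are made in 1 cell type or state only. M2 is a single derived line, so the effect of Ras and other differences between M2 and M1 cannot be told apart. In bulk samples, fewer cells with a transcript and less of it per cell cannot be told apart either.

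For 96411 NONCODE lncRNA genes the table gave TPM, a share of all transcripts corrected for transcript length and scaled over these genes alone. Of them, 55467 were listed at 0 in all 48 libraries of M2 and M1. The 21857 genes at 0.5 TPM or more in at least 3 of the 48 were tested; 959 of these reached 0.5 TPM in exactly 3 libraries, and 1481 genes just outside the limit reached it in exactly 2. No gene name could be given to any identifier. The level of the Ras transgene, known TGF-β-induced lncRNAs and the identity of the lines were therefore not checked here, and most genes below are given by rank and values. The M2 libraries held fewer detected genes than the M1 libraries at 8 h. Genes at 0.5 TPM or more numbered 11751 to 13822 in M2 with TGF-β, 10559 to 11913 in M2 with SB, 16434 to 16541 in M1 with TGF-β and 15494 to 16748 in M1 with SB. The 10 most abundant genes took 62.3 to 72.3%, 67.0 to 70.8%, 59.9 to 61.9% and 64.5 to 66.8% of the total in these groups. Read depth is unknown, since TPM keeps none, and its part in the differences between the lines was not tested.

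At 8 h the response differed between M2 and M1 for 113 lncRNA genes, 0.517% of those tested (limma, Benjamini-Hochberg adjusted p under 0.05). The response was higher in M2 for 56 of them and lower in M2 for 57. Without adjustment, p was under 0.05 for 2156 genes. The median difference over all tested genes was 0.148 on the log2(TPM + 0.5) scale, with a median standard error (SE) of 0.459. When the libraries were rescaled to equal median ratios, the median was 0.045 and 243 genes were called (1.11%), 94 higher and 149 lower. Of the 113 genes, 105 were called under both scalings (53 higher and 52 lower), and none of the 113 changed sign. M2 TGF-β replicate 1 stood apart from its replicates, with 11751 genes at 0.5 TPM or more against 13638 and 13822, and a median-ratio factor of 0.769 against 1.03 and 1.11. Without it 145 genes were called, 98 higher and 47 lower. The highest of the 4 group means had a median of 3.30 TPM over the 56 higher genes and 3.17 TPM over the 57 lower genes. It was under 2 TPM for 17 higher and 20 lower genes, and at least 100 TPM for 2 higher and 5 lower genes. At least 1 of the 4 groups was listed at 0 in every library for 39 of the 113. Groups at 0 add no spread to the estimate that all groups share. For such genes the SE and p-value may understate the spread where the gene was detected.

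Each line on its own responded with many more genes. TGF-β and SB differed in M2 for 1715 genes (7.85%), of which 1487 were higher and 228 lower with TGF-β. They differed in M1 for 1677 genes (7.67%), of which 1119 were higher and 558 lower. The predominance of higher calls in M2 depended on the scale: after median-ratio rescaling 1457 were higher and 1177 lower in M2, and after quantile normalization 1139 were higher and 1007 lower. In M1 the split was 1062 higher and 963 lower after quantile normalization, and 531 higher and 443 lower when the total was taken without the 10 most abundant genes.

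A response called in 1 line only was seldom called as a difference between the lines. Of the 1065 genes called in M1 and not in M2, 66 (6.20%) differed between the lines by the test of the difference, and 817 (76.7%) had the same sign in M2. Of the 1103 genes called in M2 and not in M1, 31 (2.81%) differed between the lines, and 923 (83.7%) had the same sign in M1. A further 609 genes were called in both lines with the same sign, and 12 of these (1.97%) differed in size. For 278 of the 609 (45.6%) the 95% interval of the difference lay within 1 log2 unit of 0 on either side. For the other genes of that class the data do not bound the difference so closely.

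**Figure D1:**
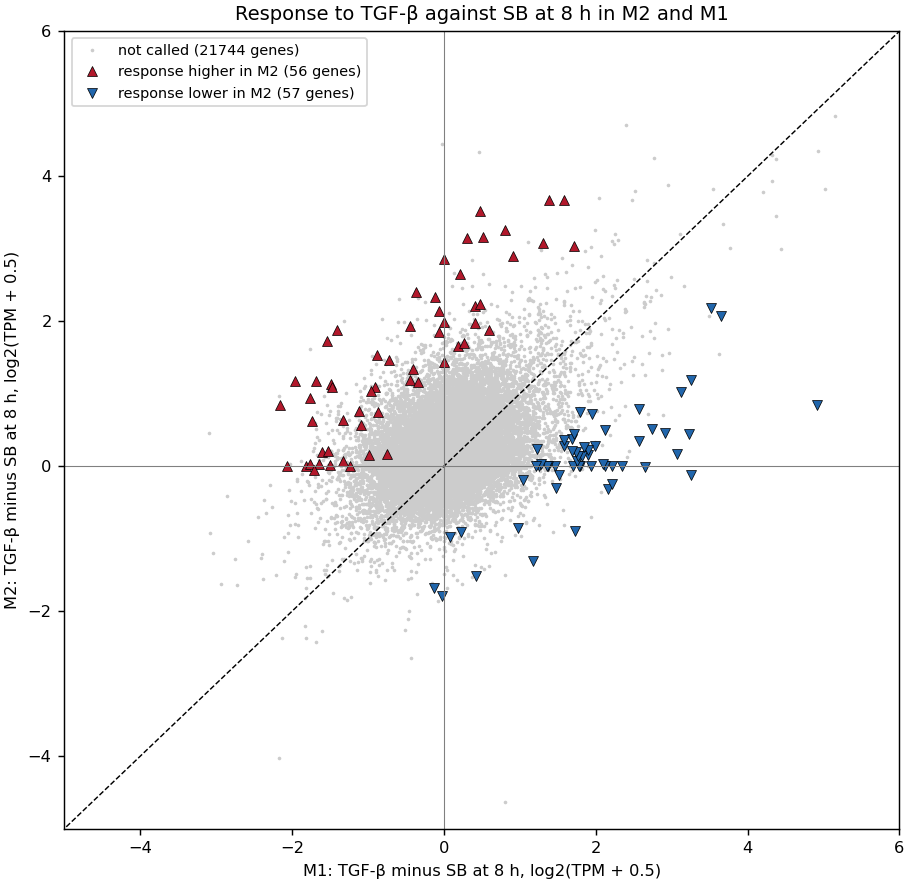
Log2 response to 8 h of TGF-β against SB in M2 (vertical axis) against the same in M1 (horizontal axis), 1 point per tested lncRNA gene. The 113 genes whose responses differed between the lines are coloured, 56 higher and 57 lower in M2; they lie off the diagonal of equal responses, along both axes.

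By the test in each line, the 113 genes fell into classes that describe the same libraries and carry no separate test. M1 alone had a called response in 66 (23 higher and 43 lower in M2 than in M1). M2 alone had one in 31 (25 higher and 6 lower). Both lines responded with the same sign in 12 (5 higher and 7 lower), and with opposite signs in 3 (2 higher and 1 lower). For 1 higher gene neither line passed the test alone, at a difference of 3.27. After median-ratio rescaling the 243 called genes were divided into 102 (27 higher and 75 lower), 89 (50 and 39), 34 (12 and 22) and 13 (2 and 11), with 5 in neither. The balance of higher and lower genes among those called in M2 alone thus depended on the scale, as did that among genes of opposite signs.

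The largest class comprised 43 genes that TGF-β raised in M1 and for which no M2 response was called. Their median response was 0.03 in M2 and 1.80 in M1 (log2). In 39 of the 43 both M2 groups averaged under 0.5 TPM, a level at or near 0 with either agent. Over the 57 genes with a lower response in M2, 70.2% were at that low level in both M2 groups, against 36.8% of all tested genes and 29.8% of the 1119 genes that were higher with TGF-β in M1. The same M2 levels entered the test that picked the 57 genes, so this share only describes them and is no separate result.

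Genes were ranked by the size of the difference among those called under both scalings, with a group mean of at least 2 TPM at 8 h and with no overlap of the TGF-β and SB libraries in the line with the larger response. These conditions left 36 higher and 36 lower genes, and the first 12 of each are described. NONHSAG002713.2 was the first of the lower genes. It stood at 0.984, 0.136 and 0.256 TPM in M2 with TGF-β and was listed at 0 in all 3 M2 libraries with SB. In M1 it stood at 25.5, 29.2 and 26.4 TPM with TGF-β, against 0.514, 0.277 and 0.472 TPM with SB. Every M1 library with TGF-β lay far above all 9 others. The lines differed in response by -4.07 (SE 0.47, adjusted p = 5.91e-07), with a response of 0.84 in M2 (adjusted p = 0.127) and 4.91 in M1 (adjusted p = 4.07e-14). With a pseudocount of 0.1 the difference was -3.56 and missed the threshold (adjusted p = 0.108). The gene was already lower in M2 than in M1 in untreated cells (log2 difference -2.59, adjusted p = 3.06e-07). In M1 it averaged 3.80 ± 1.55, 4.38 ± 1.81, 27.0 ± 1.97 and 32.2 ± 3.89 TPM (SD, n = 3) in the TGF-β series at 0, 2, 8 and 24 h, so most of its increase came between 2 and 8 h. With SB it averaged 3.83 ± 1.31, 2.84 ± 0.433, 0.421 ± 0.126 and 0.173 ± 0.300 TPM at these times. The ligand series rose and the inhibitor series fell: at 8 h against 0 h the log2 change was 2.75 with TGF-β (adjusted p = 2.81e-07) and -2.20 with SB (adjusted p = 4.3e-05).

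NONHSAG020978.2 was listed at 0 in all 3 M2 libraries with TGF-β and had 0.150, 0 and 0 TPM in M2 with SB. In M1 it had 5.74, 4.53 and 4.63 TPM with TGF-β, against 0, 0.233 and 0 TPM with SB. The M1 libraries with TGF-β were again apart from all others. Its responses differed by -3.39 (SE 0.64, adjusted p = 0.0031), a value that depends on the 0.5 TPM added to each level and sets no bound. The response was -0.13 in M2 (adjusted p = 0.952) and 3.26 in M1 (adjusted p = 1.71e-06). With TGF-β it averaged 1.46 ± 1.52, 3.25 ± 0.754, 4.97 ± 0.671 and 7.02 ± 0.451 TPM at 0, 2, 8 and 24 h in M1 (SD, n = 3). In untreated cells it was lower in M2 (log2 difference -1.57, adjusted p = 0.0117), and it was listed at 0 in all 24 libraries of MDA-MB-231.

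**Figure D2:**
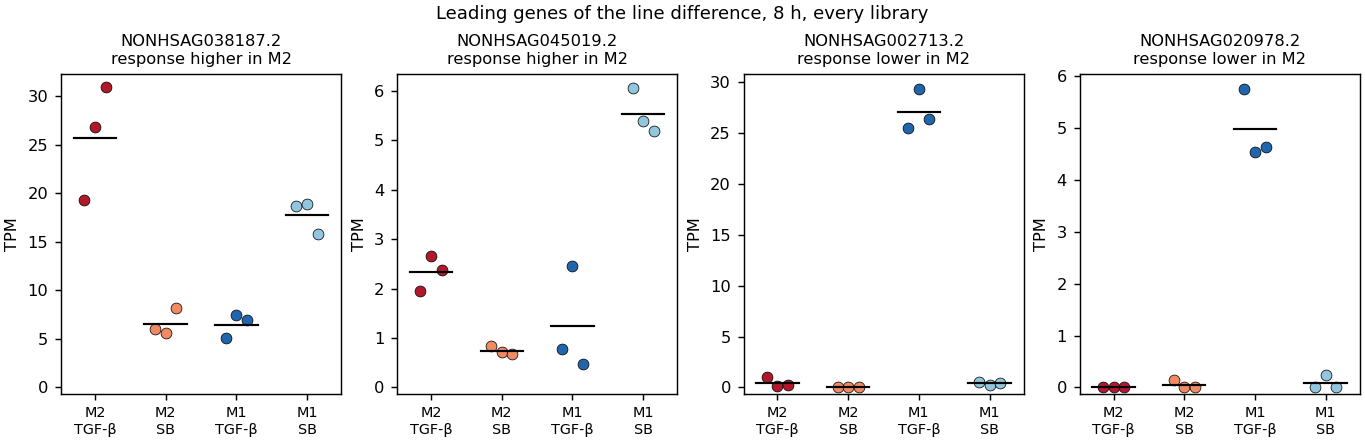
TPM of the 4 named genes in the 12 libraries at 8 h, with M2 left of M1 and TGF-β left of SB; points are libraries and lines are group means, on a separate scale for each gene. The genes with a lower response in M2 reach 25.5 to 29.2 and 4.53 to 5.74 TPM in M1 with TGF-β and stay under 1 TPM in every other library.

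Further lower genes had the same form, high in M1 with TGF-β. Rank 4 had 0.417, 0.459 and 0.816 TPM in M2 with TGF-β, 0.0936, 0.122 and 0.742 TPM in M2 with SB, 9.31, 9.29 and 8.44 TPM in M1 with TGF-β, and 0.497, 0.648 and 0.412 TPM in M1 with SB. Its response differed by -2.78 (SE 0.42, adjusted p = 0.000106). Rank 9 was listed at 0 in all 6 M2 libraries and had 2.14, 2.29 and 3.37 TPM in M1 with TGF-β, against 0, 0 and 0.366 TPM in M1 with SB. Rank 11 averaged 0.206 ± 0.179 TPM in M2 with TGF-β, 0.0466 ± 0.0807 TPM in M2 with SB, 14.1 ± 1.91 TPM in M1 with TGF-β and 2.19 ± 1.29 TPM in M1 with SB (SD, n = 3). Its difference of -2.22 (adjusted p = 0.00319) missed the threshold with a pseudocount of 0.1 (adjusted p = 0.357), with the 10 most abundant genes out of the total (adjusted p = 0.24) and with only the groups compared (adjusted p = 0.131). In untreated cells this gene was lower in M2 than in M1 (log2 difference -2.91, adjusted p = 1.72e-09). The first 12 lower genes spanned -4.07 to -2.21, and 11 of them had a called response in M1 alone. The exception was the gene of rank 6, for which TGF-β lowered the level in M2: 0, 0.0357 and 0 TPM with TGF-β, against 0.260, 1.31 and 0.994 TPM with SB. That gene had 1.81, 3.78 and 2.34 TPM in M1 with TGF-β, against 0.769, 1.42 and 0.511 TPM in M1 with SB, a response of 1.17 that missed the threshold (adjusted p = 0.0666). Its difference of -2.49 (adjusted p = 0.0248) was not called with only the groups compared (adjusted p = 0.0908), nor without M2 TGF-β replicate 2 or 3, M2 SB replicate 2 or 3, M1 TGF-β replicate 2, or M1 SB replicate 1 or 3 (adjusted p 0.0534 to 0.107).

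The 6 genes with a lower response called in M2 alone had a median response of -1.41 in M2 and 0.16 in M1.

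The second class comprised 25 genes that TGF-β raised in M2 and for which no M1 response was called. Their median response was 1.97 in M2 and 0.00 in M1. Both M1 groups averaged under 0.5 TPM in 8 of the 25, and the others reached that level in at least 1 M1 group. In M1 the sign of their response was positive for 11 and negative for 11.

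Among the higher genes, that of rank 4 was detected in M2 with TGF-β alone. It had 2.81, 1.92 and 5.45 TPM in M2 with TGF-β at 8 h and was listed at 0 in all 9 other libraries at 8 h. The response differed by 2.86 (SE 0.31, adjusted p = 2.84e-07), which depends on the 0.5 TPM added and sets no bound. All 48 libraries shared 1 estimate of spread for this gene, and most groups were at 0. The SE and p-value therefore do not measure the spread of the M2 libraries with TGF-β. Under other settings the adjusted p was as high as 0.014. In M2 with TGF-β the gene averaged 1.19 ± 0.648 TPM at 2 h and 3.38 ± 0.626 TPM at 24 h (SD, n = 3). Untreated M2, M2 with SB at every time and M1 with either agent at every time were listed at 0.

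The gene of rank 6 had 20.8, 25.1 and 18.1 TPM in M2 with TGF-β, against 2.95, 1.74 and 1.38 TPM in M2 with SB. In M1 it had 0.178, 0.731 and 0.984 TPM with TGF-β, against 0.343, 0.453 and 0.321 TPM with SB. Its response differed by 2.85 (SE 0.62, adjusted p = 0.0153), a call lost with a pseudocount of 0.1 (adjusted p = 0.288) and with the 10 most abundant genes out of the total (adjusted p = 0.174). Without M2 TGF-β replicate 2, M2 SB replicate 3 or M1 TGF-β replicate 1 it was lost at adjusted p 0.0531 to 0.0611. At 24 h it averaged 144 ± 11.7 TPM in M2 with TGF-β and 60.0 ± 5.03 TPM in M2 with SB (SD, n = 3), high under the inhibitor too, and the difference between the lines at 24 h was 0.44 (adjusted p = 0.876).

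For the gene of rank 10 the levels were 23.0, 36.4 and 40.7 TPM in M2 with TGF-β, against 5.46, 6.22 and 6.50 TPM in M2 with SB. In M1 it had 25.0, 18.6 and 18.7 TPM with TGF-β, against 22.8, 24.7 and 19.9 TPM with SB. The response differed by 2.45 (SE 0.29, adjusted p = 5.91e-07), and the M1 libraries of both agents overlapped. In untreated cells the gene was lower in M2 than in M1 (log2 difference -2.22, adjusted p = 8.71e-11). With TGF-β, M2 averaged 5.53 ± 1.69, 9.09 ± 0.994, 33.4 ± 9.25 and 75.9 ± 6.44 TPM at 0, 2, 8 and 24 h, and M1 averaged 26.9 ± 2.79, 25.9 ± 2.04, 20.8 ± 3.64 and 18.0 ± 1.52 TPM (SD, n = 3). With SB, M2 averaged 6.06 ± 0.54 TPM at 8 h and 23.1 ± 4.20 TPM at 24 h (SD, n = 3). Its level in M2 was thus higher at 24 h than at 8 h under the inhibitor too.

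The first higher gene, NONHSAG038187.2, responded in both lines with opposite signs. It had 19.4, 26.9 and 31.0 TPM in M2 with TGF-β, against 5.996, 5.61 and 8.15 TPM in M2 with SB. It had 5.06, 7.46 and 6.90 TPM in M1 with TGF-β, against 18.7, 18.9 and 15.8 TPM in M1 with SB. The groups did not overlap in either line. Its responses differed by 3.28 (SE 0.38, adjusted p = 5.91e-07), with a response of 1.88 in M2 (adjusted p = 4.25e-06) and -1.40 in M1 (adjusted p = 0.000365). Untreated M2 and M1 did not differ beyond their spread (log2 difference 0.10, adjusted p = 0.847). Against 0 h, the M2 level at 8 h changed by 1.15 with TGF-β (adjusted p = 0.00481) and by -1.32 with SB (adjusted p = 0.00243). In M1 the same values were -0.65 with TGF-β (adjusted p = 0.131) and 0.91 with SB (adjusted p = 0.0521), which missed the threshold.

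**Figure D3:**
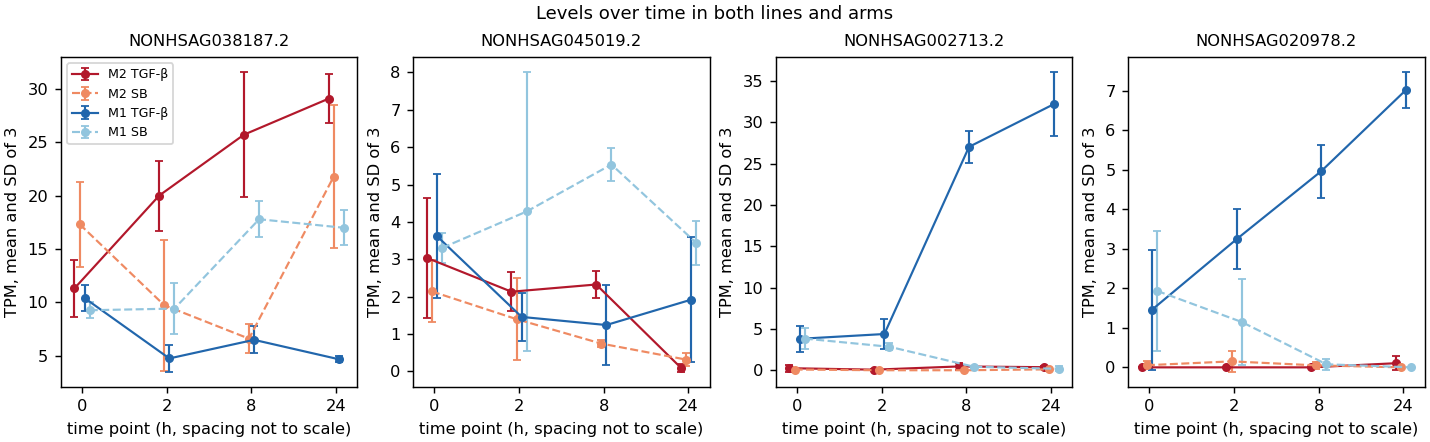
Mean TPM with SD (n = 3) of the 4 named genes at 0, 2, 8 and 24 h in M2 and M1 with TGF-β or SB; time points are evenly spaced and not to scale, and groups are drawn side by side at each time. NONHSAG038187.2 lies higher with TGF-β in M2 and lower with TGF-β in M1 at 8 h, and NONHSAG002713.2 reaches 27.0 TPM at 8 h in M1 with TGF-β alone.

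The other genes with opposite signs were lower in level. The higher one averaged 0.862 TPM in M2 with TGF-β, 0.159 TPM in M2 with SB, 0.435 TPM in M1 with TGF-β and 1.31 TPM in M1 with SB, with a difference of 2.00 (adjusted p = 0.00641). The lower one averaged 0.412, 1.14, 5.39 and 2.47 TPM in these groups, with a difference of -1.83 (adjusted p = 0.006).

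In 23 genes with a higher response in M2, the M1 level was called lower with TGF-β than with SB, and no response was called in M2. Their median response was 0.21 in M2 and -1.53 in M1, and both M2 groups averaged under 0.5 TPM in 13 of the 23. At 8 h against 0 h, the M1 level was called lower with TGF-β in 5 of the 23 and higher with SB in 13. The median log2 changes in M1 were -0.365 with TGF-β and 0.849 with SB. NONHSAG045019.2 ranked second among the higher genes. It had 1.95, 2.66 and 2.37 TPM in M2 with TGF-β, against 0.835, 0.718 and 0.674 TPM in M2 with SB. It had 0.786, 2.46 and 0.473 TPM in M1 with TGF-β, against 6.05, 5.39 and 5.18 TPM in M1 with SB. The groups did not overlap in either line, though 1 M1 library with TGF-β lay well above the other 2. The response differed by 3.14 (SE 0.71, adjusted p = 0.0233), with a response of 1.18 in M2 (adjusted p = 0.165) and -1.96 in M1 (adjusted p = 0.00992). The call was lost when any of 9 of the 12 libraries was left out (adjusted p 0.0513 to 0.0871), all but M2 TGF-β replicate 1, M1 TGF-β replicate 2 and M1 SB replicate 3. It was also lost with a pseudocount of 0.1 (adjusted p = 0.0721) and with the 10 most abundant genes out of the total (adjusted p = 0.0585).

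The gene of rank 9 had 1.25, 2.21 and 2.91 TPM in M2 with TGF-β, against 0.377, 0.581 and 1.26 TPM in M2 with SB. It had 4.67, 5.91 and 3.95 TPM in M1 with TGF-β, against 13.2, 18.4 and 11.7 TPM in M1 with SB. The response differed by 2.57 (SE 0.54, adjusted p = 0.011), and the call was lost without M2 TGF-β replicate 3 (adjusted p = 0.0508) or M2 SB replicate 1 (adjusted p = 0.0538). It was also lost with a pseudocount of 0.1 (adjusted p = 0.0594) and with the 10 most abundant genes out of the total (adjusted p = 0.0536). At 8 h against 0 h, the M1 level changed by 0.12 with TGF-β (adjusted p = 0.9) and by 1.38 with SB (adjusted p = 0.0353). In M1 a rise was thus called with the inhibitor, and no fall was called with the ligand. The first 12 higher genes spanned 2.45 to 3.28: 7 had a called response in M2 alone, 3 in M1 alone, 1 in both with the same sign and 1 in both with opposite signs. That of rank 3 was the least certain of them, with a difference of 3.06 (adjusted p = 0.0424) and adjusted p values of 0.0132 to 0.177 when libraries were left out. It was called only without M2 TGF-β replicate 1 or M2 SB replicate 2.

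**Figure D4:**
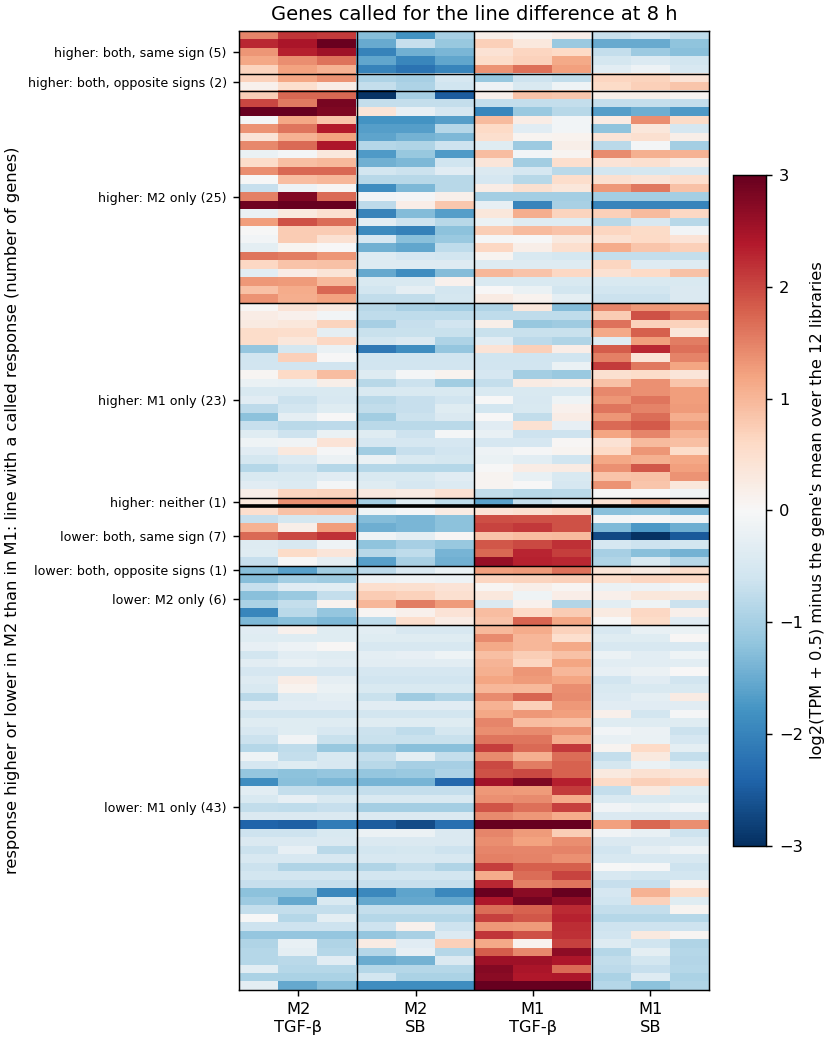
Levels of the 113 genes in the 12 libraries at 8 h, each gene centred on its mean over the libraries (log2 scale), with genes grouped by class and M2 and TGF-β to the left. Most of the 43 genes of the largest class are highest in the 3 M1 libraries with TGF-β, and most of the 25 higher genes with a response called in M2 alone are highest in the 3 M2 libraries with TGF-β.

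Genes that responded in both lines in the same direction differed in size. Among the 5 with a larger increase in M2 the median response was 3.26 in M2 and 1.39 in M1. Among the 7 with a larger increase in M1 it was 1.02 in M2 and 3.12 in M1. The gene of rank 11 was one of 7 called genes that reached 100 TPM, which were picked out after their values were seen. It had 259, 416 and 403 TPM in M2 with TGF-β, against 38.5, 26.7 and 46.8 TPM in M2 with SB. It had 106, 99.1 and 106 TPM in M1 with TGF-β, against 59.3, 62.2 and 55.2 TPM in M1 with SB. TGF-β libraries lay above SB libraries in both lines, and the response differed by 2.45 (SE 0.34, adjusted p = 2.54e-05).

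Of the other abundant genes, 5 had a lower response in M2. One averaged 402 ± 63.4 TPM in M2 with TGF-β, 94.8 ± 10.7 TPM in M2 with SB, 194 ± 5.83 TPM in M1 with TGF-β and 15.2 ± 2.42 TPM in M1 with SB (SD, n = 3). It was more abundant in M2 with either agent, and its relative increase was larger in M1 (difference -1.57, adjusted p = 0.000241). Another had a decrease called in M2 alone. It averaged 292 ± 41.1 TPM in M2 with TGF-β and 545 ± 18.5 TPM in M2 with SB, a response of -0.91 (adjusted p = 3.06e-05). In M1 it averaged 424 ± 20.2 TPM with TGF-β and 362 ± 16.2 TPM with SB, a response of 0.23 (adjusted p = 0.427), and the responses differed by -1.14 (adjusted p = 0.00209). The third averaged 209 ± 17.0 and 238 ± 14.8 TPM in M2 with TGF-β and with SB, and 494 ± 30.2 and 240 ± 15.3 TPM in M1 with TGF-β and with SB (difference -1.22, adjusted p = 0.0022). The most abundant of all averaged 117 ± 8.35 and 70.5 ± 3.26 TPM in M2 with TGF-β and with SB, and 663 ± 8.21 and 171 ± 5.26 TPM in M1 with TGF-β and with SB. Its difference of -1.23 was close to the threshold (adjusted p = 0.0491) and missed it when any 1 of the 12 libraries was left out (adjusted p 0.0834 to 0.101). The fifth averaged 162 ± 25.1 and 95.8 ± 13.2 TPM in M2 with TGF-β and with SB, and 133 ± 9.81 and 37.9 ± 2.31 TPM in M1 with TGF-β and with SB (difference -1.04, adjusted p = 0.0123), and its call was lost without M2 SB replicate 3 (adjusted p = 0.0542). The other abundant gene with a higher response in M2 averaged 147 ± 26.7 and 129 ± 11.1 TPM in M2 with TGF-β and with SB, and 59.0 ± 2.16 and 99.4 ± 4.19 TPM in M1 with TGF-β and with SB (difference 0.92, adjusted p = 0.0214). That call was lost when any of 8 libraries was left out (adjusted p 0.0526 to 0.0919); it was kept without M2 TGF-β replicate 1, M2 SB replicate 3, M1 TGF-β replicate 1 or M1 SB replicate 3. With the 10 most abundant genes out of the total, 5 of the 7 abundant genes missed the threshold (adjusted p 0.2 to 0.237), all but the gene of rank 11 and the one of difference -1.57.

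The same difference between the lines was taken at the other times. The group means came from other libraries than those at 8 h, but all 48 libraries shared the gene filter and each gene's estimate of spread. Calls at different times are therefore not independent. At 0 h 1 gene was called (0.00458%), with 1644 at an unadjusted p under 0.05 and 1 call after median-ratio rescaling. None of the 113 genes was called at 0 h. At 2 h 85 genes were called (0.389%), 78 higher and 7 lower in M2, against 24 higher and 7 lower after rescaling. That count moved between 7 and 1644 when single libraries were left out, with both ends set by M2 libraries with SB at 2 h. At 24 h 466 genes were called (2.13%), 183 higher and 283 lower.

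Part of the 8 h differences were called again at 24 h. Of the 56 genes with a higher response in M2 at 8 h, 20 (35.7%) were called higher at 24 h, against 0.837% of all tested genes, and none was called lower. Of the 57 with a lower response, 27 (47.4%) were called lower at 24 h, against 1.29% of all tested genes, and none was called higher. The median difference at 24 h was 1.00 over the 56 genes and -1.28 over the 57, against 0.09 over all tested genes. At 24 h the sign was positive for 47 of the 56 and negative for 54 of the 57. Of the 56, 4 (7.14%) were called higher at 2 h, against 0.357% of all tested genes. Of the 57, none was called lower at 2 h, against 0.032% of all tested genes, and 1 was called higher. The median difference at 2 h was 0.705 over the 56 and -0.291 over the 57, against 0.229 over all tested genes. The sign at 2 h was positive for 48 of the 56 and negative for 32 of the 57. A total of 3 genes were called at 2, 8 and 24 h with 1 sign, and the genes of rank 1 and 4 among the higher ones were both called at each of these times. These calls at 2 h did not hold with only the groups compared, where no gene was called.

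**Figure D5:**
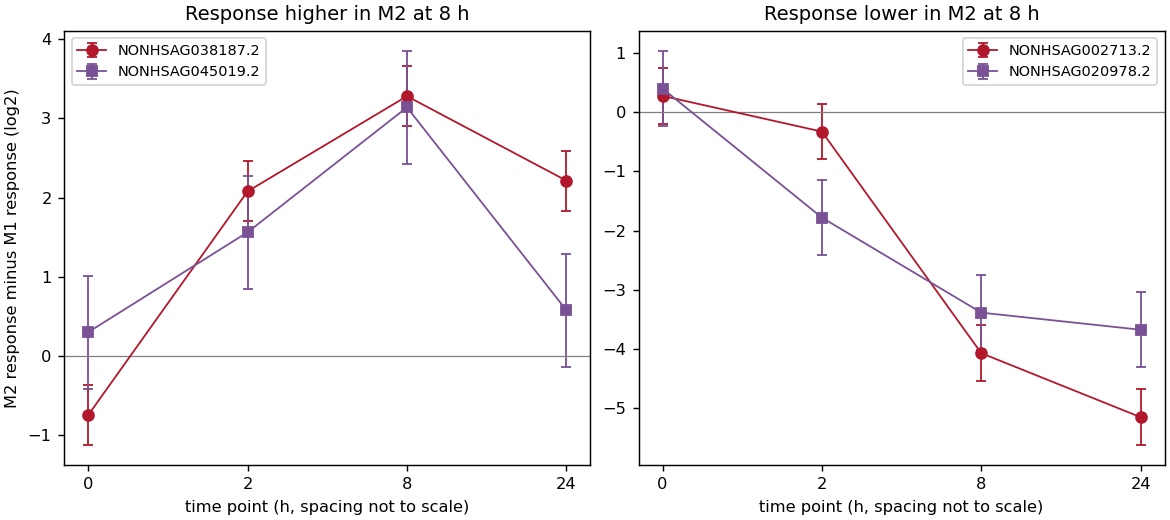
Response in M2 minus response in M1 (log2, ± SE) of the 4 named genes at 0, 2, 8 and 24 h, evenly spaced and not to scale. None was called at 0 h; at 8 h the values are 3.28 and 3.14 for the higher genes and -4.07 and -3.39 for the lower genes, and at 24 h NONHSAG045019.2 is at 0.58.

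The difference in NONHSAG038187.2 was already called at 2 h in the main fit. With only the groups compared, no gene was called at 2 h. The M2 libraries with SB at 2 h were spread widely for this gene (16.7, 7.14 and 5.30 TPM). The difference stood at -0.75, 2.08, 3.28 and 2.21 at 0, 2, 8 and 24 h (adjusted p = 0.00746 at 2 h and 0.000201 at 24 h). At 2 h its response was called in M2 (1.153, adjusted p = 0.00553) and not in M1 (-0.925, adjusted p = 0.0731). At 24 h the response was called in M1 (-1.759, adjusted p = 6.94e-06) and not in M2 (0.455, adjusted p = 0.429). Of 2, 8 and 24 h, only 8 h thus had called responses of opposite signs. For NONHSAG038187.2 the change in the line difference was not itself called from 2 to 8 h (adjusted p = 0.448). Nor was it called from 8 to 24 h (adjusted p = 0.741). The calls at single times therefore do not show that its difference changed between them. NONHSAG002713.2 stood at -0.33 at 2 h (adjusted p = 0.825) and -5.15 at 24 h (adjusted p = 6.44e-10), and its change from 2 h to 8 h was itself significant (-3.75, adjusted p = 0.00625). NONHSAG020978.2 stood at -1.78 at 2 h (adjusted p = 0.182) and -3.68 at 24 h (adjusted p = 0.00023). For other genes the difference was not called at 24 h. NONHSAG045019.2 had 0.58 (adjusted p = 0.854), and the lower genes of rank 4 and 9 had -0.94 (adjusted p = 0.357) and -0.29 (adjusted p = 0.834). At 24 h that of rank 4 had a called response in both lines (1.738 in M2 and 2.682 in M1), and that of rank 9 in neither. The lower gene of rank 10 had 0.339 (adjusted p = 0.87). Its M2 level with TGF-β averaged 0.246 TPM at 8 h and 20.0 TPM at 24 h, and its 24 h response was called in M2 (5.178) and in M1 (4.839). Among these genes the change from 8 to 24 h was itself called for the lower gene of rank 9 (2.05, adjusted p = 0.0322). It was not called for NONHSAG045019.2 (adjusted p = 0.532) or the lower genes of rank 4 (adjusted p = 0.296) and 10 (adjusted p = 0.0994). Over all genes, 34 (0.156%) had a line difference that changed between 2 and 8 h, 4 upward and 30 downward, and 56 (0.256%) one that changed between 8 and 24 h, 21 upward and 35 downward. After median-ratio rescaling these counts were 129 (0.59%), 21 upward and 108 downward, and 243 (1.11%), 134 upward and 109 downward, so the balance of directions between 8 and 24 h turned with the scale.

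In untreated cells 30 of the 57 genes with a lower response in M2 (52.6%) were lower in M2 than in M1 and 4 were higher, with a median log2 difference of -0.74. Over all tested genes 17.1% were lower and 2.12% higher, with a median of -0.34. After median-ratio rescaling 22 of the 57 were lower and 6 higher, against 7.25% lower and 6.25% higher over all tested genes, and the medians were -0.44 over the 57 and -0.07 over all genes. Of the 43 genes with a response called in M1 alone, 23 were lower in untreated M2. Of the 56 genes with a higher response in M2, 12 (21.4%) were lower and 2 (3.57%) higher in untreated M2, shares near those of all tested genes, and their median was -0.27. Under 8 h of SB, 619 of all tested genes were higher in M2 than in M1 and 8919 lower (43.6% called), and with TGF-β 804 were higher and 6332 lower (32.6%). That predominance of lower calls depended on the scale: after rescaling 2688 were higher and 3898 lower with SB, and 2214 were higher and 2574 lower with TGF-β.

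In MDA-MB-231, a line of triple-negative breast cancer, TGF-β and SB differed at 8 h for 155 of 16552 tested genes (0.936%), 111 higher and 44 lower. Of the 57 genes with a lower response in M2, 23 were tested there and 5 were called higher with TGF-β (0.671% of all tested genes). All 5 belonged to the 7 genes that TGF-β raised in both M2 and M1 and more in M1, of which 6 were tested. None of the 11 tested genes that had a lower response in M2 and a response called in M1 alone was called in MDA-MB-231. Of the 56 genes with a higher response in M2, 27 were tested and 1 was called, a decrease (0.266% of all tested genes), and none of the 12 of these with a response called in M2 alone was called. At 8 h the calls in MDA-MB-231 were few, so a miss there does not show that a gene did not respond.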

How the data were processed

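Total RNA was taken with TRIzol and sequenced on the Illumina platform, per the labels' protocols. Build GRCh38 and the tools StringTie 1.3.6, HISAT2 2.2.0, cutadapt 2.10 and FastQC are named in the submitters' processing notes. Parameters, strand setting and annotation release were not given in the sources used here, so reads of overlapping, antisense or near-identical genes cannot be told apart. The TPM values deposited cover lncRNA genes and no others. A few abundant genes can therefore shift the rest, and depth, counting intervals and detection limits are unknown. No column was left unmatched to a sample, and no 2 columns were identical. The series lists 72 samples where its design text has 36. Groups were taken from the labels.

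In R 4.3.3, with data.table (version 1.17.8) for reading, log2(TPM + 0.5) was fitted by limma 3.58.1 with lmFit, contrasts.fit and eBayes with trend. The 48 libraries of M2 and M1 entered 1 model of 16 groups, and MDA-MB-231 (24 libraries) was fitted apart. Two-sided p-values received Benjamini-Hochberg adjustment over all genes tested in a fit, and calls were made at an adjusted p under 0.05. Fold changes on this scale understate changes of low genes. Libraries were rescaled to equal median ratios as an alternative, and the other settings tried are listed in the closing section. The fit was tested on simulated data for the 8 h difference over 21857 genes. The changed genes, 50 for each size of change, were drawn from those with a mean of at least 1 TPM. Recovery of lower genes was therefore not measured. Of the genes changed by 0.5, 1, 2 and 3 (log2), 0%, 10%, 56% and 88% were called. Small differences were therefore mostly missed. There were 9 false calls among unchanged genes, a larger share of all calls in that run than the threshold of 0.05 aims at. When none was changed, 0 genes were called. The simulation shuffled each gene's residuals over all 48 libraries. Shifts of whole libraries and unequal spread between groups were thus not reproduced, and false calls from these were not measured.

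The members, lists and naming rule were chosen with earlier results of these data known. The rule took the first 12 genes in each direction by size of difference, among genes called under both scalings with the same sign, with a group mean of at least 2 TPM at 8 h and no overlap of the agents in the line with the larger response. None of the identifiers (0) matched the RefSeq table or GENCODE, so only 2 identifiers per direction are printed, and the planned list of known lncRNA genes was not analysed here.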

Additional observations from a re-analysis of the deposited data

Results flagged for a closer look

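The responses of M2 and M1 to 8 h of TGF-β differed by the test of the difference itself for 113 lncRNA genes, and by the same test for 85 genes at 2 h and 466 genes at 24 h. Single libraries were checked by leaving each out in turn. Differences below are the M2 response minus the M1 response at 8 h (log2), and all passed an adjusted p under 0.05 in limma.

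NONHSAG038187.2 had 3.28 and NONHSAG045019.2 had 3.14. The genes of rank 3 to 12 among the higher ones had differences of 3.06, 2.86, 2.86, 2.85, 2.77, 2.64, 2.57, 2.45, 2.45 and 2.45. In 7 of the first 12 the response was called in M2 alone.

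NONHSAG002713.2 had -4.07 and NONHSAG020978.2 had -3.39. The genes of rank 3 to 12 among the lower ones had differences of -2.90, -2.78, -2.66, -2.49, -2.48, -2.46, -2.35, -2.23, -2.22 and -2.21. In 11 of the first 12 the response was called in M1 alone, and the M2 libraries of these genes were all under 1 TPM at 8 h.

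The abundant genes that had a lower response in M2 differed by -1.23, -1.14, -1.22, -1.57 and -1.04, and the further abundant gene that had a higher one differed by 0.92. Among the first 12 higher genes the call was kept under every other setting that tested it and with any library left out for those of rank 1, 4, 10 and 11.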

How the results depend on the processing

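The 8 h count of 113 stayed within 1.5 times with a pseudocount of 1 (150), with no filter (152) and with the replicate number as a block (115). It was 47 with a pseudocount of 0.1, 48 at a mean of at least 1 TPM, 37 with the 10 most abundant genes out of the total, 206 after quantile normalization, 243 after median-of-ratios scaling and 65 with only the groups compared. Leaving out single libraries gave 72 to 145, with 72 without either M2 SB replicate 1 or replicate 2 and 145 (98 higher, 47 lower) without M2 TGF-β replicate 1. For M2 alone the count was 2634 after median-of-ratios scaling and 387 with only the groups compared, and for M1 it was 974 with the 10 genes out. Without 1 library these were 827 to 2195 in M2 (876 and 1131 without SB replicate 1 and 2, 885 and 827 without TGF-β replicate 2 and 3) and 1158 to 1310 in M1. The lines differed under SB for 4548 genes after quantile normalization (7298 to 9017 without 1 library), and under TGF-β for 3950, or 3991 with the 10 genes out (4483 to 6748, the lowest without M2 replicate 1). The 0 h count was 0 with a pseudocount of 0.1, a mean of at least 1 TPM or the 10 genes out, 6 with no filter and 2 with only the groups compared (1 to 18 without 1 library). The 2 h count was 193 at a mean of at least 1 TPM, 31 and 33 after median-of-ratios scaling and quantile normalization, 4 with the 10 genes out and 0 with only the groups compared (7 to 1644; 1644 without M2 SB replicate 1 and 7 without replicate 3). The 24 h count was 1121 and 896 after these scalings and 296 with the 10 genes out (322 to 432). The cause of these moves was not tested.

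Of 263 values of 30 described genes under other settings, 45 lost the call and 0 reversed; of 360 without 1 library, 79 lost it and 0 reversed. At 8 h the deviations of the libraries from their group means were correlated across genes. Same-numbered libraries of different groups gave -0.027 to 0.138 over 18 pairs (median 0.012), and differently numbered ones gave -0.1345 to 0.0592 (median -0.0032). These correlations were not taken at other times. With the replicate number as a block, no count moved by over 1.5 times. Unknown depth limits values near 0.5 TPM most.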

Other observations

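Among the 113 genes, 2 pairs carry consecutive numbers in the NONCODE catalogue. Positions of the genes were not used here, so whether such pairs lie side by side was not tested.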
